A study of Mus musculus with 6 samples.

Results

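Target genes that the tumour suppressor p53 is known to switch on were followed on 6 arrays of early B-lineage RNA, 10 in all: Cdkn1a, Mdm2, Ccng1, Gadd45a, Plk2, Trp53inp1, Phlda3, Aen, Btg2 and Ddb2. They were chosen by name, as established p53 targets of cell cycle arrest and feedback, and every probe named for one of them in the platform annotation was kept. They are 10 of the 19057 genes named by 1 or more probes, and have 24 of the 45281 probes. Of these, 19 probes of 8 genes were detected well enough to be tested, among 18172 tested probes in all. The 5 others were the 3 probes of Aen, the 1 probe of Btg2 and 1 of the 3 probes of Mdm2.

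The RNA was of B220+CD43+ cells sorted out of mouse bone marrow, called pre-B cells by the labels. Of the single-colour Illumina BeadChip arrays, 3 were labelled Fnip1 -/- and 3 wild type. Fnip1 encodes a partner of folliculin that acts with the energy sensor AMPK. Column headers call the former KO and add LPAB and the name Yugioh, whose meanings they do not state. Headers of the wild-type arrays carry neither. Strain, age, treatment and the part of Fnip1 that was changed are given in no source used here. The design text counts 3 mice and each column header has a number of its own, but none of them says outright that each array is a separate animal. The p-values cover only how far these samples spread, and their number limits the precision. In RNA from a sorted population, fewer cells of a kind and less RNA per cell cannot be told apart.

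p53 is a transcription factor that accumulates after DNA damage and other stress and binds pairs of short half-sites in its target genes. Some targets stop the cell cycle, some repair DNA or kill the cell, and some, such as Mdm2, switch p53 off again. In early B-lineage cells this response meets the DNA breaks of antigen receptor gene rearrangement and bursts of division that follow pre-B cell receptor signalling.

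The labels were checked first. The brightest probe of Fnip1 was the higher one where the label reads Fnip1-null, at 10.01 ± 0.04 against 9.06 ± 0.14 (normalized log2 signal, SD, n = 3 each, limma adjusted p = 0.000665), and without knowing which part of the gene was changed this does not check the genotype. Each direction below follows these labels, Fnip1-null relative to wild type. Arrays detected between 17442 and 18294 probes (detection p under 0.05) and had median signals between 40.5 and 44.3. Array A of each group lacked Xist signal and the other 4 arrays had it, while Eif2s3y, a Y-linked gene, showed the reverse. Each group thus held RNA of both sexes in the same mix and of more than 1 animal. Of 10 defining B-lineage markers 7 were tested, with Igll1 (13.49 against 13.13) and Vpreb1 (12.30 against 12.17) bright in both groups. Cd79b and Ebf1 were called lower, at -0.49 and -0.52. The single probe of Pax5 was not detected on any array, and no probe was named for Cd79a in the table used here.

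The p53 targets did not move as one group. Plk2 was 4.73-fold higher on the arrays labelled Fnip1-null and Ddb2 1.65-fold higher, whereas Gadd45a was 1.89-fold and Cdkn1a 1.77-fold lower, each by its brightest probe. Probes of the feedback genes Mdm2 and Ccng1 did not pass the test. By probe, 5 were called higher and 4 lower (limma, Benjamini-Hochberg adjusted p under 0.05) and 10 of the 19 tested did not pass. Over all tested probes 7.7% were called higher, 6.51% lower and 14.2% either way, against 47.4% of the tested probes here. These counts include 2 called probes, 1 of Cdkn1a and 1 of Ddb2, that passed the filter through the group where they are high, which favours a difference. Of the 16 probes detected on all 6 arrays 4 were called higher and 3 lower, or 43.8%, against 14% of all such probes. Several probes share a gene, and the genes were chosen with earlier results of these data known. The median log2 difference was -0.05 over these 19 probes and 0.01 over all tested probes. The median of its absolute size was 0.55 against 0.17. The groups did not overlap for 13 of the 19 probes, against 33.8% of all tested probes (17.4% with Fnip1-null above and 16.4% below). By brightest probe, 2 of the 8 tested genes were called higher and 2 lower, against 13.1% of all tested genes called either way.

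**Figure D1:**
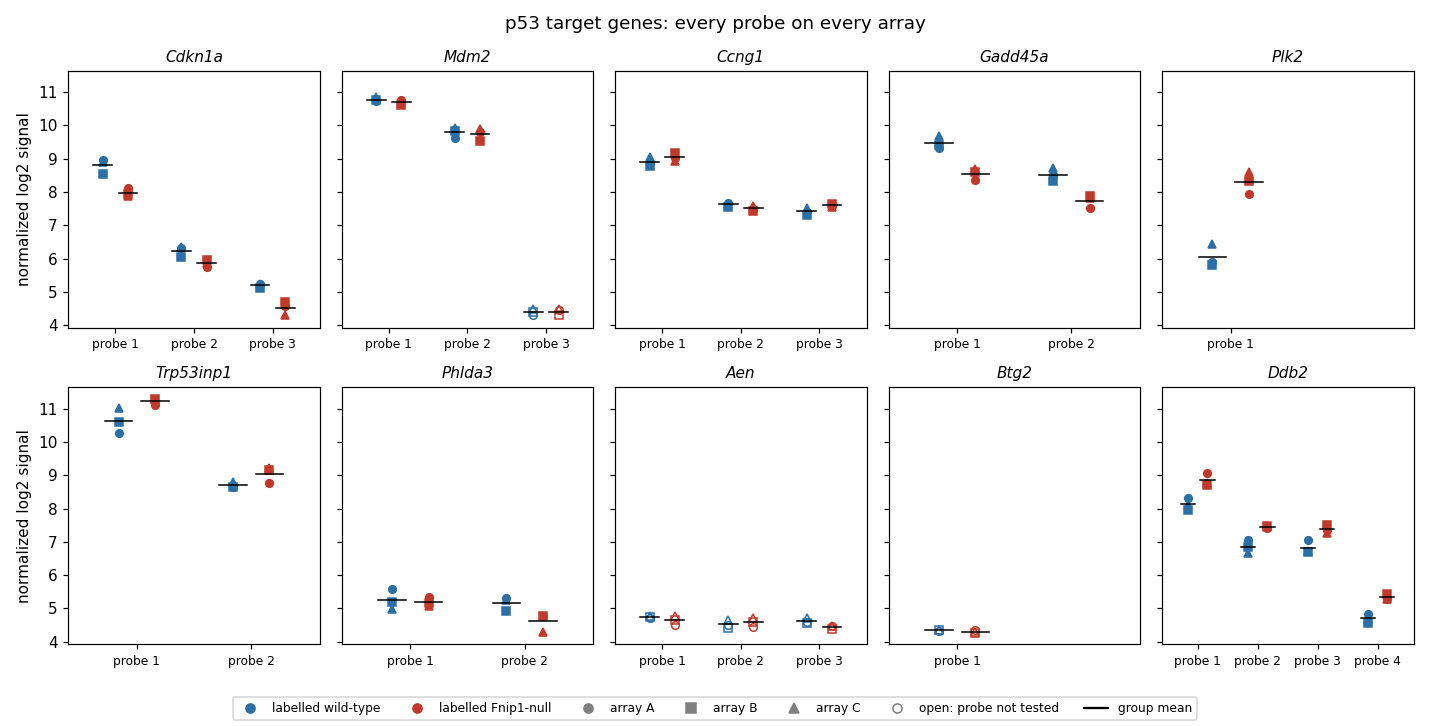
Normalized log2 signal (y axis) of every probe of the 10 p53 targets on each array, with a panel per gene and probes numbered from brightest to dimmest. Blue marks arrays labelled wild type, red those labelled Fnip1-null, the shape marks the array, open symbols mark probes that were not tested, and short lines are group means. Plk2 lies between 7.94 and 8.62 on the arrays labelled Fnip1-null and between 5.82 and 6.45 on those labelled wild type, while Aen and Btg2 lie near 4 to 5 throughout.

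Promoter sequence is shown for 6 of the genes, since p53 is known to act through half-sites near its targets. RefSeq promoter windows (GRCm38.p6, 250 bases before to 50 after each start site) were matched for 8 of the 10 genes. Trp53inp1 and Ddb2 had none in the table used. The p53 half-site, which reads the same way on both strands, was searched with no mismatch. It was found in windows of 5 of these 8 genes, namely Cdkn1a, Gadd45a, Mdm2, Ccng1 and Aen, and in 8.36% of all 32851 windows. As known p53 targets the genes were not chosen independently of such sites. Capitals mark half-sites, except in Plk2, shown for its large difference, where they mark the GC box (GGGCGG on either strand).
Cdkn1a promoter, chr17:29090729-29091028, plus strand: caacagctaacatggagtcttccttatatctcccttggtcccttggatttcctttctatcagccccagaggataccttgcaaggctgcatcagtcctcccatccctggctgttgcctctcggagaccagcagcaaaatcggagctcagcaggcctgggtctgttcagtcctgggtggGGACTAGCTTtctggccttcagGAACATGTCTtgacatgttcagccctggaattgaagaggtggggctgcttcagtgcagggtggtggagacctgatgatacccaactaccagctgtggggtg
Gadd45a promoter, chr6:67037403-67037482, minus strand: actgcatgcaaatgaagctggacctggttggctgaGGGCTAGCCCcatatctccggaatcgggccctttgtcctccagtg
Mdm2 promoter, chr10:117710900-117710979, minus strand: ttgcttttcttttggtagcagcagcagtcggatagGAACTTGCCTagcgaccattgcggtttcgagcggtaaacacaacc
Ccng1 promoter, chr11:40755427-40755506, minus strand: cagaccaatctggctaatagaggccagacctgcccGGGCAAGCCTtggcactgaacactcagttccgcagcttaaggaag
Aen promoter, chr7:78895902-78895976, plus strand: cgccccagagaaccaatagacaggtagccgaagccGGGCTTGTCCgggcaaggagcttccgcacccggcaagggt
Plk2 promoter, chr13:110394794-110395093, plus strand: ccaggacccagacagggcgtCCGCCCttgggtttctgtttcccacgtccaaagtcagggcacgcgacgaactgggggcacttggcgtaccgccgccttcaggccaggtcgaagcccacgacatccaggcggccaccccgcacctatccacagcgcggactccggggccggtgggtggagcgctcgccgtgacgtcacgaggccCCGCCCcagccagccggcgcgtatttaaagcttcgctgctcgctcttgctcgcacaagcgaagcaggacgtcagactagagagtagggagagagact
The Cdkn1a window lies at the upstream of its 2 start sites, which are 2790 bases apart, and is the only one among these genes with more than 1 half-site. Its half-sites begin 73 and 51 bases before that start. At least 2 half-sites were found in 0.359% of all windows. The half-site began 40 bases before the start in Gadd45a, 186 bases in Mdm2 and 185 bases in Ccng1. In the Aen window shown it began 10 bases after the start. The GC box was found in windows of 7 of the 8 genes and in 35.7% of all windows, CCAAT in 5 genes and 37.4% of windows, and TATAAA in none of the 8 genes and 13.6% of windows. A match is a run of letters and was not tested as a binding site.

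Among the arrest genes, Cdkn1a encodes p21, the inhibitor of cyclin-dependent kinases through which p53 stops the cell cycle. Its brightest probe (ILMN_2634083) read 8.11, 7.94 and 7.88 on arrays A, B and C labelled Fnip1-null and 8.97, 8.54 and 8.89 on those labelled wild type (normalized log2 signal). All 3 arrays labelled Fnip1-null were below all 3 labelled wild type. The difference was -0.82 (SE 0.14, limma adjusted p = 0.00457), or 1.77-fold lower (95% interval 1.43 to 2.19). A dimmer probe (ILMN_2846775) also had groups that did not overlap, at 5.75, 5.95 and 5.88 against 6.33, 6.06 and 6.35. Its difference of -0.38 did not pass (limma adjusted p = 0.0641). The dimmest probe (ILMN_2846776) was detected on no array labelled Fnip1-null and on all 3 labelled wild type, so it passed the filter through the higher group alone. Under the main settings it was at least 1.34-fold lower. Its fitted difference of -0.68 (limma adjusted p = 0.00718) uses undetected signal in the Fnip1-null group, so its call is no separate evidence. That difference ran from -1.85 to -0.31 over the other settings tried, the series matrix values included.

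Gadd45a encodes a small stress protein that holds cells before mitosis and takes part in DNA repair. Its brighter probe (ILMN_2742152) read 8.36, 8.61 and 8.70 on the arrays labelled Fnip1-null and 9.33, 9.41 and 9.68 on those labelled wild type, again with no overlap. The difference was -0.92 (SE 0.13, limma adjusted p = 0.00253), or 1.89-fold lower (95% interval 1.53 to 2.34). The other probe (ILMN_2947568) read 7.51, 7.89 and 7.83 against 8.52, 8.35 and 8.71 and was 1.72-fold lower (limma adjusted p = 0.00696). Both probes of Gadd45a thus fell by similar amounts. The sharpest contrast with them is Plk2.

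Plk2 encodes a polo-like kinase that p53 induces and that acts in centriole duplication and stress checkpoints. Its only probe (ILMN_1260448) read 7.94, 8.33 and 8.62 on the arrays labelled Fnip1-null and 5.89, 5.82 and 6.45 on those labelled wild type. Each array labelled Fnip1-null was far above each labelled wild type. The difference of 2.24 (SE 0.21, limma adjusted p = 0.000193) was 4.73-fold (95% interval 3.42 to 6.54) and ranked 95th in absolute size among the 18172 tested probes. For this probe, as for each other probe whose groups did not overlap, the exact two-sided permutation test gives p = 0.1, the smallest that 3 arrays against 3 allow. Btg2, an antiproliferative gene, had 1 probe (ILMN_1256772), which was detected on no array and lay between 4.28 and 4.36. No difference was therefore measurable for Btg2.

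**Figure D2:**
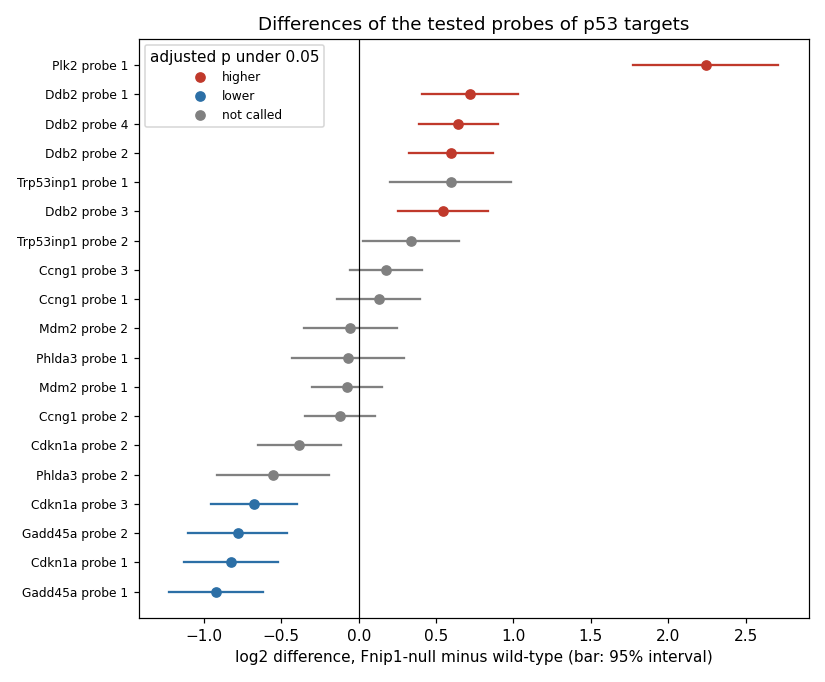
Log2 difference between arrays labelled Fnip1-null and wild type (x axis) for the 19 tested probes of p53 targets, with the 95% interval from limma. Red and blue points are probes called higher and lower at an adjusted p under 0.05 and grey points did not pass. All 4 probes of Ddb2 and the probe of Plk2 are red, both probes of Gadd45a and 2 of 3 of Cdkn1a are blue, and those of Mdm2 and Ccng1 lie around 0. The dimmest probes of Cdkn1a and Ddb2 passed the detection filter through their higher group.

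Among the feedback genes, Mdm2 encodes the ubiquitin ligase that marks p53 for destruction and is itself a p53 target. Its brightest probe (ILMN_1250774) read 10.75, 10.62 and 10.73 on the arrays labelled Fnip1-null and 10.73, 10.77 and 10.84 on those labelled wild type, with overlapping groups. The difference was -0.08 (95% interval -0.30 to 0.15, limma adjusted p = 0.668). A second probe (ILMN_2850753) differed by -0.05 (95% interval -0.35 to 0.24), and its sign turned to 0.056 without array B labelled Fnip1-null and to 0.01 without array C labelled wild type. Neither interval reaches the -0.82 of Cdkn1a or the -0.92 of Gadd45a. The remaining probe (ILMN_1229882) was not detected on any array.

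Ccng1 encodes cyclin G1, a p53 target that recruits a phosphatase to Mdm2. Its 3 probes did not pass the test and did not share a direction. The brightest (ILMN_2500276) read 9.03, 9.17 and 8.93 against 8.91, 8.77 and 9.05, a difference of 0.13 (95% interval -0.14 to 0.40, limma adjusted p = 0.524). The probe ILMN_2710229 differed by -0.12 (limma adjusted p = 0.479). The probe ILMN_2702233 differed by 0.18 (limma adjusted p = 0.303), with all arrays labelled Fnip1-null above all labelled wild type. Ccng1 lies on chromosome 11 as Fnip1 does, with 150 protein-coding genes between them in the RefSeq gene order of GRCm38.p6. The other 9 genes lie on other chromosomes.

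Trp53inp1 encodes a stress protein that promotes p53 phosphorylation and autophagy. Its brighter probe (ILMN_2506012) read 11.11, 11.29 and 11.25 on the arrays labelled Fnip1-null and 10.27, 10.60 and 11.01 on those labelled wild type. The groups did not overlap, but the arrays labelled wild type were spread widely (SD 0.37, against 0.10). The difference of 0.59 (SE 0.17) lay just outside the threshold (limma adjusted p = 0.0515). It passed under 7 of 16 alternatives, among them the fit without array C labelled wild type (0.79, limma adjusted p = 0.0131). The other probe (ILMN_2971479) read 8.76, 9.17 and 9.21 against 8.65, 8.66 and 8.80 and differed by 0.34 (limma adjusted p = 0.14). Without array A labelled Fnip1-null, its lowest of that group, it differed by 0.48 and passed (limma adjusted p = 0.0324).

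Phlda3 encodes a small lipid-binding protein that restrains AKT. Both of its probes were dim. The probe ILMN_2628567 read 4.76, 4.78 and 4.29 on the arrays labelled Fnip1-null and 5.32, 4.93 and 5.24 on those labelled wild type. It was detected on 1 of the former and all 3 of the latter, and its difference of -0.55 lay just outside the threshold (limma adjusted p = 0.0506). It passed without array B labelled wild type (-0.67, limma adjusted p = 0.0438). The other probe (ILMN_2923607) differed by -0.07 (limma adjusted p = 0.825), or by 0.10 without array A labelled wild type, so the 2 probes do not give the gene 1 level of change.

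Of the genes that act on DNA, Ddb2 encodes the damage-recognition subunit of nucleotide excision repair for ultraviolet lesions. Its 3 probes that were detected on all arrays were called higher. The brightest (ILMN_2791769) read 9.06, 8.72 and 8.77 on the arrays labelled Fnip1-null and 8.32, 7.95 and 8.12 on those labelled wild type, with no overlap. The difference of 0.72 (SE 0.14, limma adjusted p = 0.00879) was 1.65-fold (95% interval 1.33 to 2.04). The probe ILMN_1229502 read 7.41, 7.47 and 7.46 against 7.05, 6.84 and 6.67, a difference of 0.59. The dimmest (ILMN_2655244) was detected on all 3 arrays labelled Fnip1-null and on 1 labelled wild type, so it passed the filter through the higher group. Its called difference of 0.64 ran from 0.31 to 1.41 over the other settings tried, the series matrix values included.

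The remaining Ddb2 probe (ILMN_2621160) read 7.34, 7.51 and 7.28 against 7.06, 6.71 and 6.73 and differed by 0.55 (limma adjusted p = 0.0231). It no longer passed when array B labelled Fnip1-null was left out (0.48, limma adjusted p = 0.0858), nor without array B (0.48, 0.0841) or array C (0.49, 0.0721) labelled wild type. Nor did it pass with no detection filter (limma adjusted p = 0.0627). Aen, which encodes an exonuclease of p53-dependent apoptosis, could not be followed. Its 3 probes lay between 4.39 and 4.77 on all arrays, and the only detection was on 1 array labelled wild type by the probe ILMN_2924088.

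**Figure D3:**
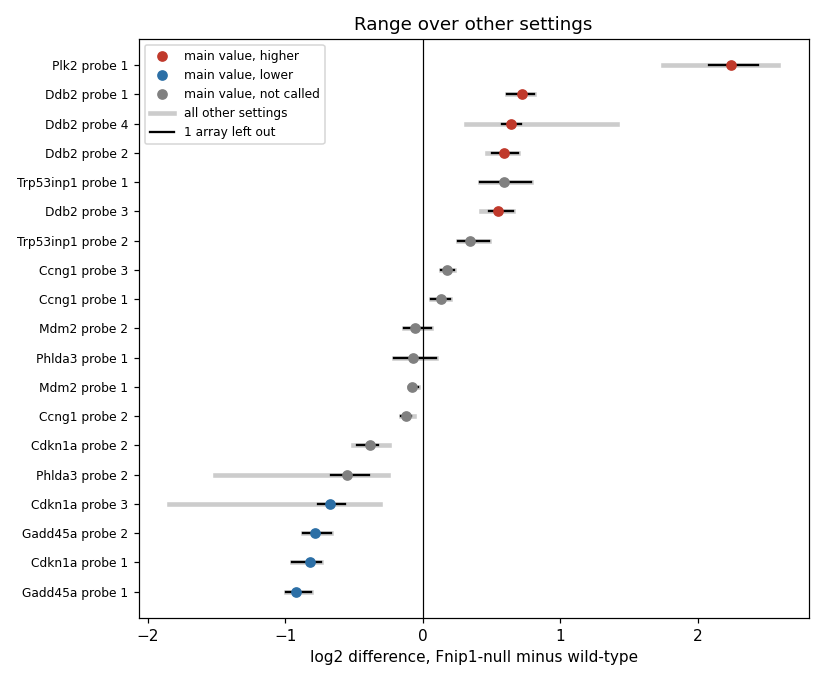
Log2 difference (x axis) of the 19 tested probes of p53 targets under other processing settings. Points are the values reported, coloured by call, grey bars span all other settings tried and black lines the fits with 1 array left out. The brightest probes of Plk2, Ddb2, Gadd45a and Cdkn1a stay on 1 side of 0, while the second probe of Mdm2 and the brighter probe of Phlda3 cross it.

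Cdkn1a was next set beside the other inhibitors of cyclin-dependent kinases. Of the 7 inhibitor genes, Cdkn1a included, 5 were tested, of which 3 (Cdkn1a, Cdkn1c and Cdkn2d) were called lower and none higher, against 5.25% called lower and 7.86% called higher among all 9679 tested genes. The median log2 difference was -0.58, and the groups did not overlap for any of the 5, against 33% of all tested genes. Cdkn1c, which encodes p57, read 6.07, 5.80 and 5.83 on the arrays labelled Fnip1-null and 6.95, 6.65 and 6.64 on those labelled wild type. Its difference was -0.85 (SE 0.13, limma adjusted p = 0.00311), or 1.80-fold lower. Cdkn2d, which encodes p19 of the INK4 family, read 9.19, 9.44 and 9.42 against 10.08, 9.90 and 9.79, a difference of -0.58 (limma adjusted p = 0.014). The brightest probes of Cdkn1b (p27) and Cdkn2c (p18) differed by -0.31 and -0.29 and did not pass (limma adjusted p = 0.12 and 0.102). Another Cdkn2c probe was called lower at -0.66 and its dimmest differed by -0.01, so its probes disagreed. Probes of Cdkn2a and Cdkn2b were not detected on any array.

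Relatives of the p53 targets were compared in the same way. Of 11 tested paralogs 3 were called lower and none higher, with a median of -0.35, against the 5.25% of all tested genes called lower. Groups did not overlap for 5 of the 11, a share not far from the 33% of all tested genes. Gadd45g, a stress gene of the same family as Gadd45a, read 9.85, 9.50 and 9.91 against 10.53, 10.35 and 10.76, a difference of -0.79 (limma adjusted p = 0.00851). Gadd45b read 7.28, 7.27 and 7.13 against 7.88, 8.04 and 7.63, a difference of -0.62 (limma adjusted p = 0.0119). All 3 Gadd45 genes were therefore called lower, and Gadd45b and Gadd45g stayed so under each of 16 alternatives. Btg1, the antiproliferative relative of Btg2, fell by 0.48 (limma adjusted p = 0.0124). The polo-like kinase genes Plk1, Plk3 and Plk4 did not pass, at -0.35, -0.06 and -0.36, in contrast to the value of 2.24 for Plk2. The number of paralogs called was 5 without array C labelled Fnip1-null.

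**Figure D4:**
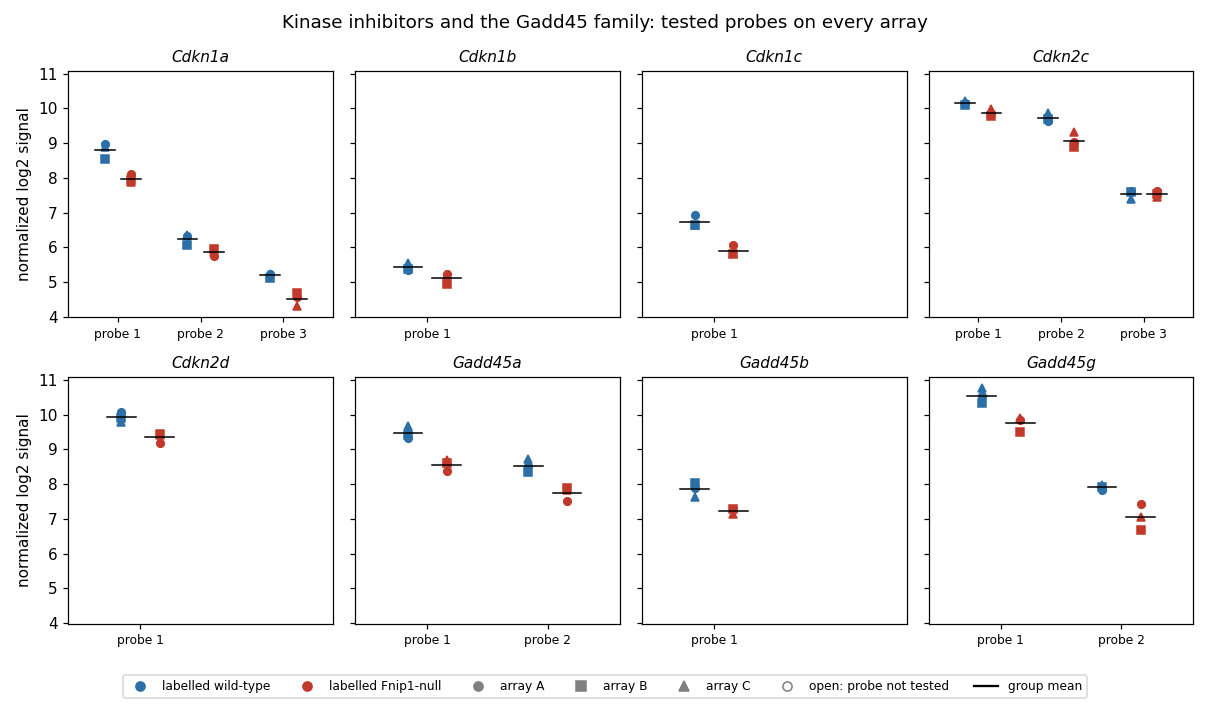
Normalized log2 signal (y axis) of the tested probes of 5 kinase inhibitor genes and 3 Gadd45 genes on each array, numbered from brightest to dimmest. Colours mark the labelled genotype, shapes the array and lines the group means. Arrays labelled Fnip1-null lie below those labelled wild type for each probe shown except the dimmest of Cdkn2c.

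Other known p53 targets were called in both directions. Of 28 listed genes 19 were tested, of which 3 were called higher and 2 lower, with a median of -0.02, where 7.86% of all tested genes were called higher and 5.25% lower. Groups did not overlap for 8 of the 19, a share not far from the 33% of all tested genes. Bbc3, which encodes the death protein PUMA, rose by 0.55 (limma adjusted p = 0.0332), the death receptor gene Fas by 0.45 (0.0306) and Rps27l by 0.42 (0.0465). A dimmer Bbc3 probe differed by 0.19 and did not pass (limma adjusted p = 0.307), whereas a dimmer Fas probe was called higher at 0.52 (0.0114). Trp53i11 fell by 0.67 (0.00641) and Ckap2, a spindle gene, by 0.64 (0.0123). The number called was 2 without array A labelled Fnip1-null, 1 without array B of that group, 2 without array A, 3 without array B and 2 without array C labelled wild type. By brightest probe, Trp53i11 kept its call in all 6 such fits, Ckap2 in 5, Bbc3 in 2, and Fas and Rps27l in 1 each.

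Of 23 listed regulators of p53 15 were tested, of which 3 were called higher and 1 lower, with a median of -0.16, beside 13.1% of all tested genes called either way. Usp7, the ubiquitin protease that stabilises Mdm2 and p53, rose by 0.58 (limma adjusted p = 0.00504), and Trp53bp1, the DNA break adaptor, by 0.61 (0.00916). Both kept their call in all 6 fits with 1 array left out. Prkdc, the kinase of end joining, rose by 0.50 (0.0468), and Trp53rka fell by 0.41 (0.0325). By these brightest probes, each kept its call in 1 of the 6 fits only. A dimmer Prkdc probe was called higher at 0.66 (limma adjusted p = 0.00577). In either group, leaving out array A or array B gave 2 called regulators. Mdm4, the Mdm2 relative that inhibits p53, differed by -0.40 (limma adjusted p = 0.0892), and passed without array C labelled wild type (-0.52, limma adjusted p = 0.0417). A second Mdm4 probe of similar signal differed by 0.09 (limma adjusted p = 0.666), so the probes disagreed. The dimmest Trp53bp1 probe likewise differed by -0.07 and did not pass, but another was called higher at 0.76 (limma adjusted p = 0.00117). A second Usp7 probe was called higher at 0.73 (limma adjusted p = 0.00813), and the dimmest did not pass at 0.39 (0.0673). A second Trp53rka probe differed by -0.11 and did not pass (limma adjusted p = 0.555). No probe was named for Trp53 itself in the table used here.

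The cell cycle genes on which p21 acts in the end were listed too. Of 23 tested genes of S phase and mitosis 3 were called lower and 1 higher, with a median of -0.13, near the 13.1% of all tested genes called either way. E2f2, whose protein drives genes of S phase, fell by 0.87 (limma adjusted p = 0.00718), Cdc20, an activator of mitotic exit, by 0.59 (0.0162) and Birc5, which encodes survivin, by 0.45 (0.0297). Cdc25b, the phosphatase that starts mitosis, rose by 0.80 (0.00775). A dimmer Cdc25b probe differed by 0.42 and did not pass (limma adjusted p = 0.0817). A second Birc5 probe was called lower at -0.47 (limma adjusted p = 0.0196), but the dimmest did not pass at -0.32 (0.0668). Leaving out array B of the Fnip1-null label, or array C of the wild-type label, left 2 called. E2f2 and Cdc25b kept their call in all 6 fits with 1 array left out, Cdc20 in 4 and Birc5 in 1.

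**Figure D5:**
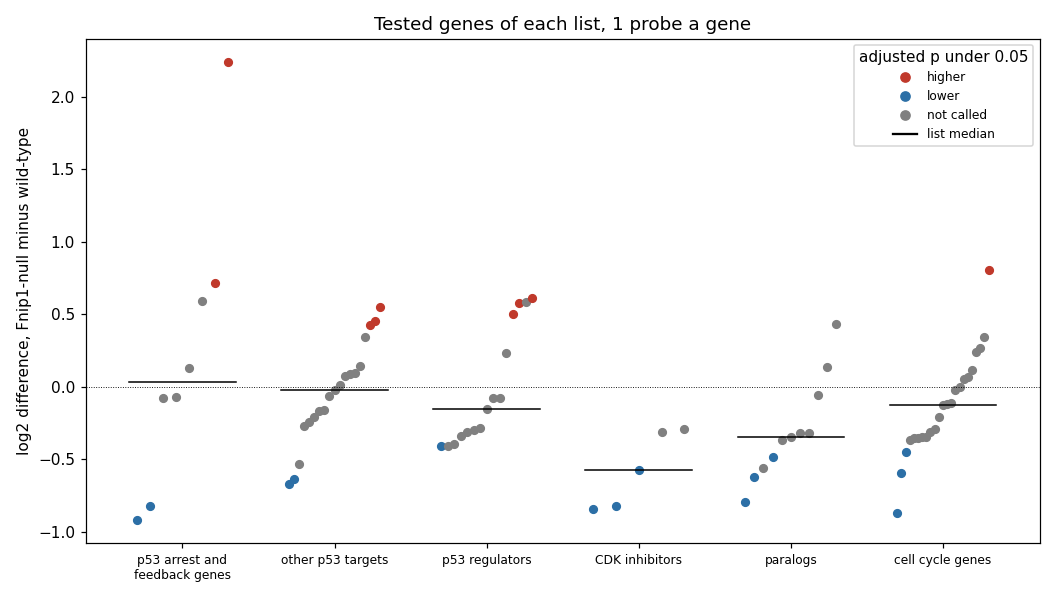
Log2 difference between arrays labelled Fnip1-null and wild type (y axis) of each tested gene in 6 lists, by its brightest probe. Red and blue points were called higher and lower at an adjusted p under 0.05, grey points did not pass, and the line is the list median. Kinase inhibitors all lie below 0, with a median of -0.58, whereas the p53 targets spread from -0.92 to 2.24.

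Genes whose pattern over the 6 arrays was most like that of the brightest Cdkn1a probe were Crlf3 (Pearson r = 0.998), Cst3 (0.992) and Larp7 (0.991). These 6 points share the 2 groups and the normalization, and the values are a description. The differences of these genes were smaller than that of Cdkn1a, at -0.30, -0.26 and -0.38.

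Other cell types could also enter a B220+CD43+ gate, and their markers were read beside these results. The summed linear signal of 6 tested basophil, mast cell and eosinophil markers was 2766 to 5879 on the arrays labelled Fnip1-null and 868 to 966 on those labelled wild type. Of these Hdc was called higher (3.84) and Mcpt8 and Prg3 lower (-1.03 and -3.23), and Ms4a2 and Epx were not detected well enough to be tested. Of 5 T cell markers Cd3e was called higher (1.20) and Thy1 lower (-0.90), with summed signals of 921 to 1452 and 985 to 1199. Of 5 natural killer markers 1 was called lower, of 8 neutrophil markers 1 and of 6 monocyte markers 2, where 13.1% of all tested genes were called either way. None of 3 erythroid, 6 plasmacytoid dendritic or 4 plasma cell markers was called. The summed natural killer signal was 3532 to 4895 against 4313 to 6155 and the neutrophil signal 11277 to 38176 against 10088 to 23852. Summed monocyte signal was 5967 to 10427 against 7561 to 9803, and erythroid signal 1235 to 5245 against 2407 to 3709. Plasmacytoid dendritic signal was 19691 to 25714 against 18315 to 23690, and plasma cell signal 11975 to 13522 against 12209 to 13052. The part of these cells in the values of the p53 targets was not tested.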

How the data were processed

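The deposited scanner table gives, per the file headers, for each probe and array, a signal intensity not normalized by the authors, with its detection p-value. All 6 signal columns were used. They carry a genotype but no replicate number, and arrays are called A, B and C in column order. The series matrix deposited by the authors holds values taken as log2 from their range. Its scale, background correction and log base are stated in no source used here. Its medians lie between 2.455 and 2.459, and its differences were 1.37 times those computed here by slope. The tool affy is named, without a version, per the submitters' processing notes.

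Intensities were background-corrected by normexp, which took its background from detection p-values, raised by an offset of 16, then quantile normalized on a log2 scale (neqc, limma 3.58.1, R 4.3.3). Tested were probes detected (p under 0.05) on 3 or more arrays, with lmFit and eBayes, two-sided, with Benjamini-Hochberg adjustment over all 18172. The 95% intervals rest on limma's moderated SE and 9.17 degrees of freedom. Where no array of the dimmer group detected a probe, the fold is a bound, taken against whichever is larger on each array, its own signal or the dimmest detected one. A gene in a list is its brightest tested probe. Symbols came from the platform annotation, with 34885 of 45281 probes naming 1 gene, 18 several and 10378 none in the table used, updated through RefSeq (GRCm38.p6).

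The genes, lists and tests were chosen with earlier results of these data known. Named were all 10 genes with each probe, Fnip1, called genes of the other lists, Trp53, Mdm4, Cdkn1b and Cdkn2c, and the 3 genes most like Cdkn1a. B-lineage and other markers, Plk1, Plk3 and Plk4, and undetected Cdkn2a and Cdkn2b were named beside them after their values were seen. Simulated data with known changes served to test the fit. Alternatives were background, scaling, offset, detection filter, array weights, variance model, a block on Xist signal, the series matrix with and without a replicate block, the probe of largest variance and each array left out, with the main normalization and tested probes kept.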

Additional observations from a re-analysis of the deposited data

How the results depend on the processing

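The 19 tested probes of the p53 targets were refitted under up to 16 alternatives each. Of 303 such values 280 kept their direction and their side of the threshold, 8 lost a call, 12 gained one and 3 changed sign. None of the sign changes was of a called value. Without 1 array, the second probe of Mdm2 ranged from -0.13 to 0.056 (positive when Fnip1-null B or wild-type C was dropped), and the brighter probe of Phlda3 from -0.21 to 0.10 (positive when wild-type A was dropped). The brightest probes of Plk2, Cdkn1a, Gadd45a and Ddb2 were called under all 16.

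With 1 array left out, probes called higher numbered 4 to 6 and lower 4 to 5, against 5 and 4. Called other p53 targets numbered 1 to 6 against 5, regulators 2 to 5 against 4, kinase inhibitors 3 to 3, paralogs 3 to 5 against 3 and cell cycle genes 2 to 5 against 4. Called other p53 targets were 3 with no detection filter and 3 with the series matrix values, and called regulators 7 with the probe of largest variance. The causes were not tested, except that a filter changes the number of probes tested.

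Replicate numbers are given only for the series matrix. By its probe ranks, replicates 1, 2 and 3 matched arrays A, B and C of the same group (Spearman correlation 1). The replicate block was fitted on the series matrix alone. Same-numbered samples had deviation correlations of 0.17, -0.003 and 0.23, and unlike-numbered ones ran from -0.24 to 0.07. These values do not settle whether the numbers pair the samples. The main fit took no pairing. With a replicate block on the series matrix, 3 probes were called higher and 2 lower, with 0 other p53 targets by limma (6 of 19 at an unadjusted p under 0.05) and 1 regulator, and 1397 probes in all against 1935 without the block. Signals near background limit Aen, Btg2 and Phlda3. With an offset of 50, the dimmest Cdkn1a probe moved from -0.68 to -0.31 and the dimmest Ddb2 probe from 0.64 to 0.31, both still called.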
